A study of Mus musculus with 24 samples.

Results

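Choline feeds both the phospholipids of cell membranes and the supply of methyl groups, and 9 genes of these routes were followed here in mouse colon and liver: Chka, Chkb, Pcyt1a, Pcyt2, Pemt, Chdh, Dmgdh, Sardh and Gamt. They were taken by name. Every probe whose gene name in the array files equalled 1 of the 9 was kept, which gave 17 probes of the 41174 on the array, and the brightest of a gene's probes over all arrays was taken as its main probe. Of the 9 genes, 6 had more than 1 probe and 3 (Dmgdh, Sardh and Gamt) had 1.

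RNA of colon and liver from 12 female C57BL/6 mice, 12 weeks old, was hybridised to 24 two-colour Agilent arrays of 60-base probes. All 12 mice were born to dams that ate a diet rich in fat and poor in both selenium and folate (HF-low) from 7 days before mating through lactation. At weaning, at about 28 days, 6 mice stayed on that diet (HF-low-low) and 6 went onto a diet also rich in fat whose selenium and folate were sufficient (HF-low-suf), and both diets held the same amount of choline bitartrate. Each array carried the RNA of 1 mouse and tissue in Cy3 and a pool of intestinal and liver RNA from all mice in Cy5. In this way 6 arrays made up each of the 4 groups of tissue and diet. Values are log2 ratios of sample to pool. They compare arrays for 1 probe and do not compare the level of 1 gene with that of another. Whole tissue was extracted, in which fewer cells of a type and less RNA per cell cannot be told apart.

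In the Kennedy pathway, choline kinases and a CTP-dependent enzyme activate choline on the way to phosphatidylcholine, and a parallel branch does the same for ethanolamine on the way to phosphatidylethanolamine. Liver has a further route, in which phosphatidylethanolamine is methylated to phosphatidylcholine at the expense of S-adenosylmethionine. Choline that is not built into lipid is oxidised to betaine, which gives a methyl group to homocysteine and leaves dimethylglycine, and this is demethylated by way of sarcosine to glycine with transfer of the carbon to folate. Creatine synthesis ends in another methylation that consumes S-adenosylmethionine.

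The first 30 bases of each main probe are given below, 5′ to 3′, because each value stands for the transcript that its probe matches. Chromosome positions were copied from the array annotation, in build mm7, and no gene model of that build was used here, so exon or UTR is not stated.
Chka, chr19:3766649-3766708, plus strand: aaaccattgcattgcattgagatcttgtaa
Chkb, chr15:89509515-89509723, minus strand: aggcttcgatgtccactatagagttcggct
Pcyt1a, chr16:32149104-32149163, plus strand: aagtcataacaatgattgttttctctcaga
Pcyt2, chr11:120719128-120719187, minus strand: tgcctggtcctcattgtactttggtggctc
Pemt, chr11:60052334-60052393, minus strand: ttgcacaaaagaagctgacagggccatgaa
Chdh, chr14:27469660-27469719, plus strand: tacaaagagaaatttaatattaaatgagag
Dmgdh, chr13:90815551-90815610, plus strand: aaacctttccattgcttcccaaacagaatg
Sardh, chr2:27196788-27196847, minus strand: gtgaagggaatctattgatgggatgcaggt
Gamt, chr10:80040533-80040593, minus strand: tctacaaggagcctgtgtcctcctcagtac
The Chkb probe spans 209 bases of the genome with its 60 bases and so crosses an intron, as does the other Chkb probe with a span of 182 bases. The guanine and cytosine content of the 17 probes lay between 35.0% and 55.0%.

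The tissue labels were checked against marker genes. All 9 hepatocyte markers on the array were higher in liver, and all 10 colon epithelium and all 8 smooth muscle markers were higher in colon. Across the 24 arrays the median Cy3 signal stood at 3.78 to 7.19 times background, and the share of spots well above background was 26.1% to 71.9%. Some arrays stood apart. The reference channel of colon HF-low-suf replicate 5 was 17.4 times its background and that of liver HF-low-suf replicate 4 was 11.7 times, against 5.41 to 7.50 times on the other 22 arrays. The mean log2 ratio of 9 adipose markers was 1.75 in liver HF-low-suf replicate 1 and −1.20 to −0.05 in the other livers, and that of 10 skeletal muscle markers was −2.69 in liver HF-low-suf replicate 2 and −5.17 to −4.01 in the others. Their part in the results below was not tested beyond the values given without these mice. In the colons the mean of the skeletal muscle markers was −5.52 to −4.62, so these markers lay below the pool in both tissues. The make-up of the pool was not tested. No main probe was saturated or missing on any array.

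Transcripts of Pemt, Sardh and Gamt were 15.3-fold to 23.0-fold more abundant in liver than in colon. The measured fold of Dmgdh was 103, on a probe that was well above background on only 5 of 12 colons, so that its size is uncertain. Those of Pcyt2 and Chdh were 4.22-fold and 2.15-fold higher in liver, and those of Chka and Pcyt1a 1.72-fold and 1.67-fold. Of the 9 genes, 8 passed the test as higher in liver (limma with the mouse as a random block, adjusted P below 0.05 over all probes and a fold change above 1.5), none passed as higher in colon, and Chkb did not pass. Of all probes on the array, 11.3% passed as higher in liver and 12.1% as higher in colon. For 6 of the 9 (Pcyt2, Pemt, Chdh, Dmgdh, Sardh and Gamt) every liver lay above every colon, as it did for 5.86% of all probes. The median liver minus colon difference was 2.08 on the log2 scale over the 9 genes and 0.02 over all probes. With median centring of the arrays in place of loess, there were 2646 probes of the array higher in liver and 6392 probes of the array higher in colon (29.3% of calls in liver), against 4646 and 5002 with loess (48.2%), and 6 of the 9 genes passed, Chka and Pcyt1a being lost.

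**Figure D1:**
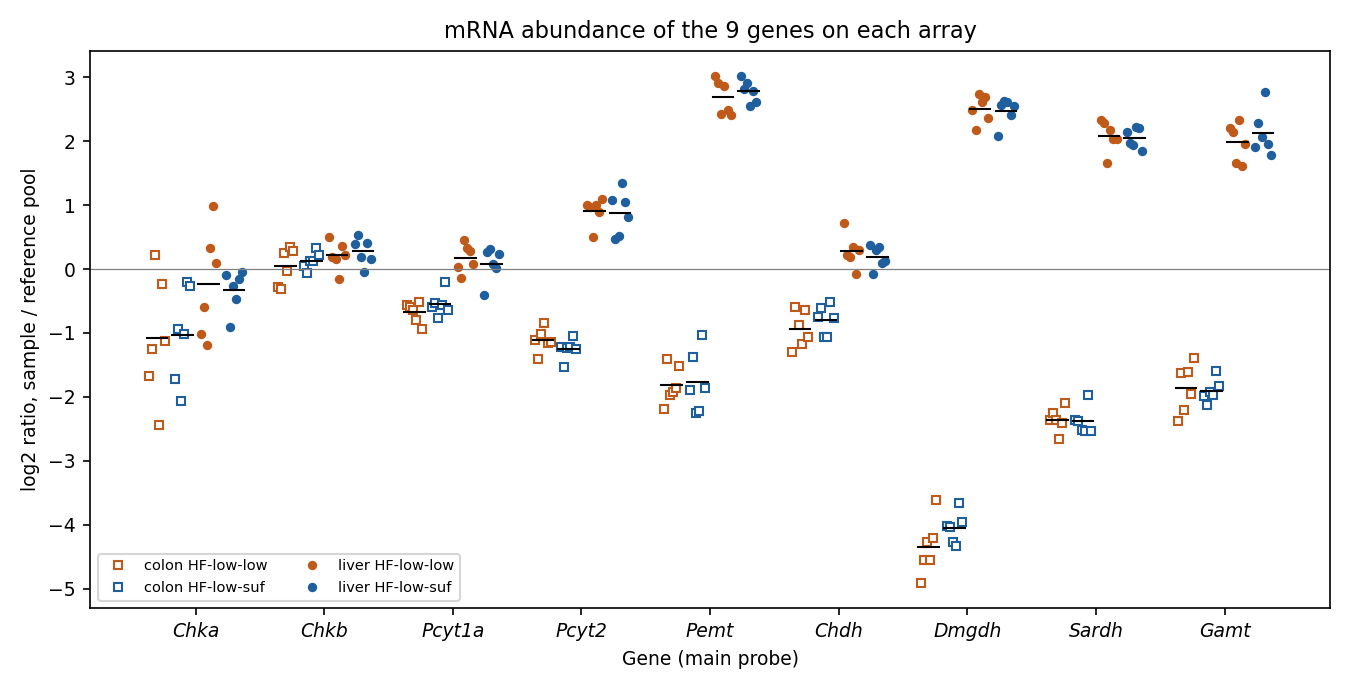
The plot shows the log2 ratio of sample to reference pool for the main probe of each gene on each of the 24 arrays, with open squares for colon, filled circles for liver, colours for diet and a black line at each group mean (6 arrays). The lowest liver value of Pemt, Dmgdh, Sardh and Gamt is 1.62 (Gamt) and their highest colon value is −1.04 (Pemt), while the 4 groups of Chka and of Chkb overlap.

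Choline kinase, the first step from choline to phosphatidylcholine, is encoded by Chka and Chkb. The log2 ratio of Chka lay between −2.44 and 0.23 in the 12 colons (median −1.07) and between −1.18 and 0.99 in the 12 livers (median −0.21). The tissues overlapped widely, yet liver was the higher in 11 of 12 mice. The mean difference was 0.78 ± 0.26 (SE), a 1.72-fold higher level in liver (limma adjusted P = 0.0195), and the exact permutation test over sign flips of the 12 mice gave P = 0.0269. The Chka liver minus colon difference was the least stable of the 8. Its call was lost without the mouse of HF-low-low replicate 4 (difference 0.59), of HF-low-suf replicate 1 (0.69) or of HF-low-suf replicate 3 (0.67), without both mice of liver HF-low-suf replicates 1 and 2 (0.75), within either diet alone (0.85 in HF-low-low and 0.71 in HF-low-suf, adjusted P = 0.144 and 0.0568) and under median centring (0.37).

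The main Chka probe was also the most variable of the 9, with an SD of 1.06 for the within-mouse difference against 0.25 to 0.45 for the other 8 genes. Of the other 3 Chka probes, the next brightest gave 0.96 ± 0.13 (SE) with liver higher in 12 of 12 mice, and the third gave 0.76 ± 0.10 but was well above background on 6 of 12 arrays in each tissue. The dimmest, well above background on 1 colon and 2 livers, gave 0.37 ± 0.14 and did not reach 1.5-fold. All 4 probes thus had a higher mean in liver, and 3 of them passed.

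Chkb encodes the beta kinase, which also accepts ethanolamine. Its log2 ratio was −0.32 to 0.35 in colon (median 0.12) and −0.16 to 0.54 in liver (median 0.20). Liver was higher in 7 of 12 mice. The difference of 0.16 ± 0.09 (SE), or 1.11-fold, did not pass (adjusted P = 0.212, exact permutation P = 0.126), and the other Chkb probe gave 0.20 ± 0.10 with an adjusted P of 0.152. The sign of the Chkb difference was negative, −0.23, under median centring and positive under loess.

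Pcyt1a, the CTP-dependent enzyme that sets the pace of phosphatidylcholine synthesis, had a log2 ratio of −0.94 to −0.21 in colon (median −0.59) and of −0.41 to 0.45 in liver (median 0.16). Liver was higher in all 12 mice although the ranges overlapped. The difference was 0.74 ± 0.09 (SE), 1.67-fold (limma adjusted P = 1.1e-07, exact permutation P = 0.000488, the smallest that 12 mice can give). The other Pcyt1a probe, which crosses an intron, showed 0.35 ± 0.14 and 1.28-fold, below the fold threshold, with liver higher in 9 of 12 mice, and median centring put the main probe at 0.36.

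Pcyt2 makes CDP-ethanolamine, the matching step on the phosphatidylethanolamine branch. Its colon values ran from −1.54 to −0.84 (median −1.19) and its liver values from 0.47 to 1.35 (median 0.99), with no overlap. The level in liver was 4.22-fold that in colon (log2 difference 2.08 ± 0.09 SE, adjusted P = 2.5e-16), and the other Pcyt2 probe gave 2.22 ± 0.14. Neither Pcyt2 probe had a liver below any colon.

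Pemt, which methylates phosphatidylethanolamine, had log2 ratios of −2.25 to −1.04 in colon (median −1.88) and of 2.40 to 3.02 in liver (median 2.79). Each liver exceeded the colon of the same mouse, by a median of 4.43 and by no less than 3.81. The fold was 23.0 on the main probe (log2 difference 4.52 ± 0.12 SE, adjusted P = 2.32e-21) and 17.9 on the other probe, which crosses an intron (4.16 ± 0.10). The main probe was well above background on 12 of 12 livers and 8 of 12 colons, and over the ways of processing tried the Pemt liver minus colon difference ran from 4.003 with median centring to 5.40 with the signals processed by Feature Extraction.

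The genes of choline oxidation and of demethylation followed. Chdh, the mitochondrial choline dehydrogenase at the entry to betaine, lay between −1.29 and −0.52 in colon (median −0.83) and between −0.08 and 0.72 in liver (median 0.26). This was a 2.15-fold difference (1.11 ± 0.10 SE, adjusted P = 5.91e-10), and the other Chdh probe gave 2.28-fold. On both Chdh probes every liver lay above every colon.

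Dmgdh, dimethylglycine dehydrogenase, showed the widest gap of the 9. Its log2 ratio was −4.90 to −3.60 in colon (median −4.23) and 2.08 to 2.73 in liver (median 2.55), a difference of 6.68 ± 0.11 (SE), or 103-fold (adjusted P = 6.37e-26). Only 5 of the 12 colons had the Dmgdh probe well above background, so that the colon level rests on spots near background. The liver minus colon difference was 5.97 to 7.39 in single mice and 6.25 to 7.92 over the ways of processing tried.

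Sardh, sarcosine dehydrogenase, was well above background on all 24 arrays. It lay between −2.65 and −1.97 in colon (median −2.37) and between 1.66 and 2.33 in liver (median 2.09), which gave 21.7-fold (4.44 ± 0.09 SE, adjusted P = 1.21e-24). The within-mouse difference of Sardh ran from 4.03 to 4.83, with the smallest SD of the 9 (0.25).

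Gamt, guanidinoacetate methyltransferase, makes creatine in the last step of its synthesis. It had log2 ratios of −2.37 to −1.39 in colon (median −1.94) and 1.62 to 2.77 in liver (median 2.01), a 15.3-fold difference (3.94 ± 0.12 SE, adjusted P = 2.35e-20). The Gamt probe was printed at 10 spots on each array, which gives the technical error within an array. The SD over these spots had a median of 0.036 and was 0.13 at most, below the SD of 0.28 between colons and of 0.32 between livers.

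**Figure D2:**
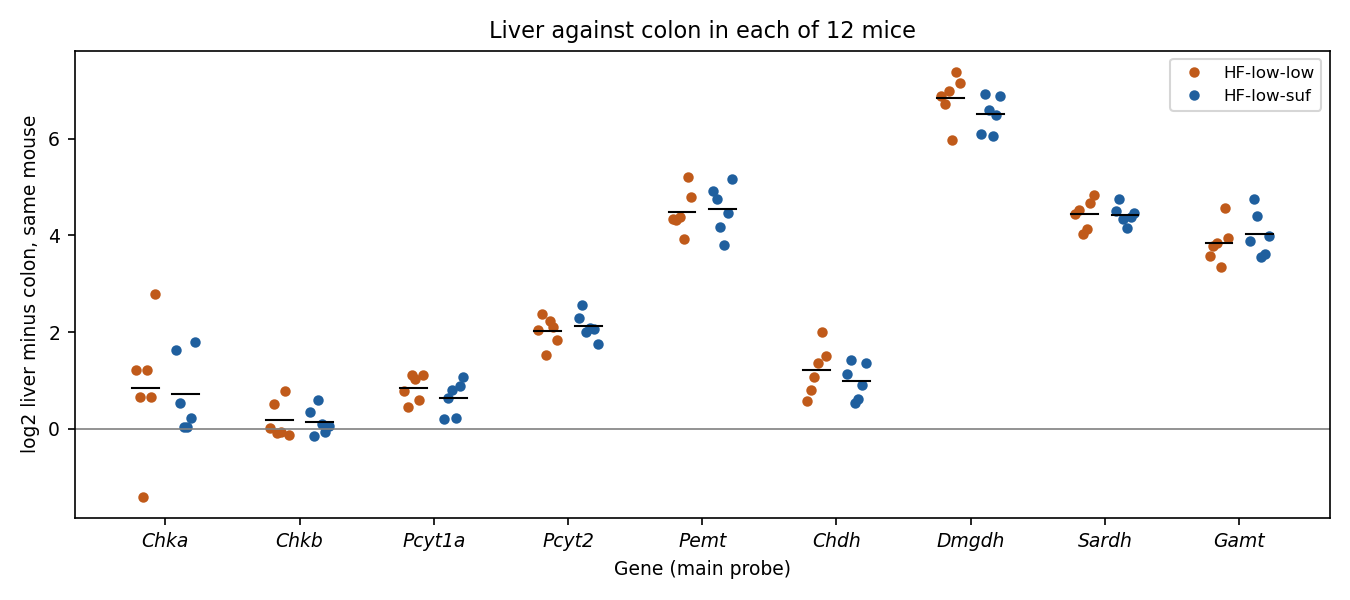
The plot shows the log2 difference between liver and colon of the same mouse for the main probe of each gene, with 6 points for each diet and a black line at the mean. All 12 mice lie above 0 for 7 genes, 11 of 12 for Chka and 7 of 12 for Chkb, and the points of both diets overlap for every gene.

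The difference between tissues had the same direction on all 17 probes, and 13 of them passed the test. In the plot of every probe, those of Chkb, Pcyt2 and Chdh lie closer to each other than those of Chka, Pcyt1a and Pemt. Within a tissue, where the values span less, the probes of a gene did not always move together. Over the 12 livers Pearson's r between both Pemt probes was 0.92 and between both Chkb probes 0.79, whereas it was 0.24 for Pcyt1a and 0.24 for Chdh. Over the 12 colons it was 0.88 for Pemt, 0.92 for Chkb, 0.69 for Pcyt1a and 0.01 for Chdh. These correlations describe arrays that share slides and the reference pool.

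**Figure D3:**
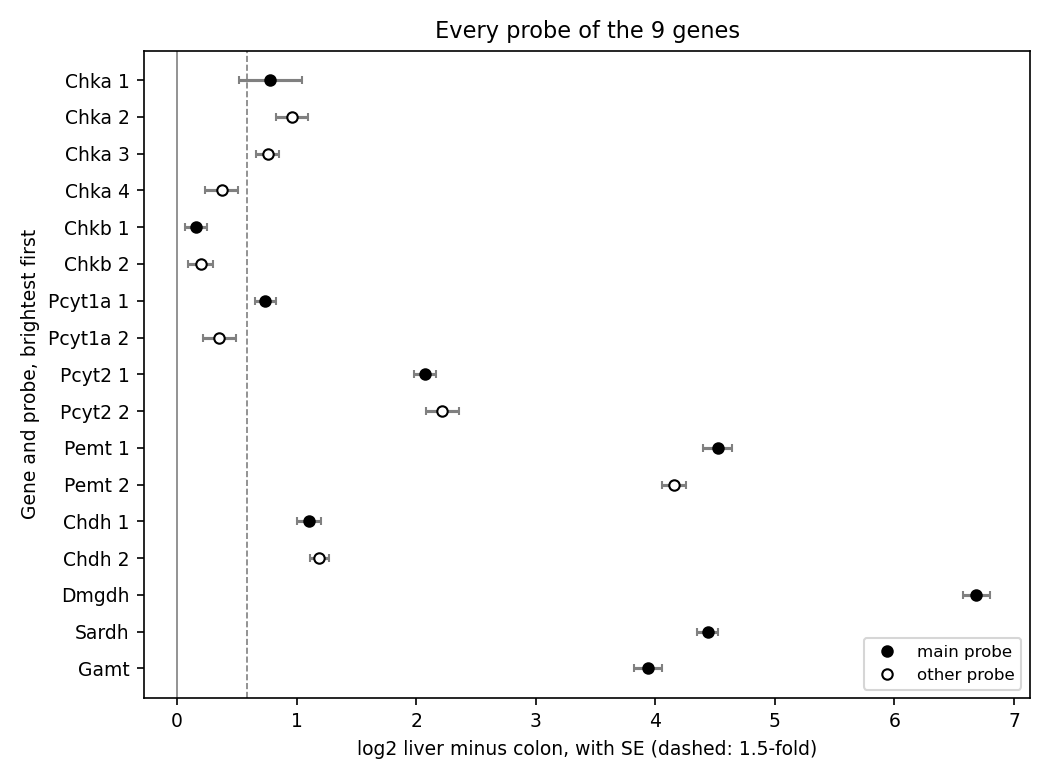
The plot shows the log2 liver minus colon difference of each of the 17 probes with its SE, filled for the main probe and open for other probes, numbered from the brightest. All points lie to the right of 0, and those of Chkb, the dimmest Chka probe and the dimmer Pcyt1a probe lie left of the dashed line at 1.5-fold.

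Among the neighbours in the genome, Dmgdh lies head to head with Bhmt2, whose product methylates homocysteine from S-methylmethionine. In RefSeq annotation of build GRCm38.p6 their starts are 133 bases apart on opposite strands, and 5.85% of the 27025 genes counted have an opposite start that near. On the array Bhmt2 was also far higher in liver (6.39 ± 0.09 SE, limma adjusted P = 4.14e-27, well above background on all 24 arrays). The whole interval between both starts is shown because it is all the sequence that separates the transcripts, chr13:93674303-93674435, written on the plus strand with each CG in capitals.
Dmgdh and Bhmt2: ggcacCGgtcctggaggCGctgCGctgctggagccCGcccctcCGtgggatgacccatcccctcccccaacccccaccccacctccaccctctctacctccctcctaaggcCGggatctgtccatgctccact
For comparison, the stretches before Gamt, which was liver-high, and before Chkb, which did not pass, are chr10:80261026-80261175 and chr15:89429928-89430014, both on the minus strand. The Gamt stretch is the 150 bases outside the annotated gene, and the Chkb stretch begins at an opposite start and ends before that of Chkb.
Gamt: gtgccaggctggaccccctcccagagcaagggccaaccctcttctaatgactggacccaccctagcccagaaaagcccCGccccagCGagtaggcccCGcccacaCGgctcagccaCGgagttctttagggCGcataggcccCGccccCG
Chkb: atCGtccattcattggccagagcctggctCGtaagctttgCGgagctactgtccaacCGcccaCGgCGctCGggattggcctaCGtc
The stretches hold 6, 8 and 8 CG dinucleotides. In the 250 bases before a start, the 8 genes with an entry held between 1 and 28 of them, and the median of 32851 promoters was 6. Both Pemt starts were poor in CG, with 1 and 2 (92.1% and 81.2% of promoters hold at least as many), Sardh had 3 (71.0%), Gamt and Chkb had 12 each (33.5%), Dmgdh had 16 (25.4%) and Chka had 24 (12.0%). The 3 Chdh starts held 20, 2 and 2 (17.9%, 81.2% and 81.2%), and the 3 Pcyt1a starts held 28, 27 and 14 (7.6%, 8.6% and 29.4%). The sequence TATAAA, searched on both strands, was found in the 250 bases before the Chkb start, beyond the opposite start and outside the stretch printed above, and before none of the other 7 genes, and 12.4% of promoters hold it. These counts describe sequence and were not tested against expression.

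The rest of the pathway was read from a list of 42 further genes of choline, ethanolamine and methyl transfer, chosen with earlier results of these data known, all of which had a probe. On the brightest probe of each gene, 21 passed as higher in liver, 9 as higher in colon and 12 did not pass. Of all probes, 11.3% passed as higher in liver and 12.1% as higher in colon. The median difference was 0.68 against 0.02 over all probes. The largest liver excess was that of Mat1a, which makes S-adenosylmethionine in liver (7.72 ± 0.13 SE). For Bhmt, which passes the methyl group of betaine to homocysteine, the difference was 7.02 ± 0.13. Etnk2, an ethanolamine kinase, and Etnppl (listed as Agxt2l1), which degrades phosphoethanolamine, stood at 6.59 ± 0.12 and 6.58 ± 0.19. The Etnppl probe was well above background on 1 of 12 colons and that of Mat1a on 6, so that these differences rest on colon signals near background. Other probes with the same names gave far smaller differences, 0.75 ± 0.13 for Etnk2 and 1.44 ± 0.25 for Etnppl, which passed in the same direction and were well above background on 4 and 0 of 12 colons and on 8 and 9 of 12 livers. Of the 17 genes of the list with several probes, 3 had probes that differed in the call, Aldh7a1, Ept1 and Gpcpd1.

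In the opposite direction, Slc44a4, a member of the choline transporter family, was the most colon-biased of the list (−3.67 ± 0.17 SE). Pld1, a phospholipase D that releases choline from phosphatidylcholine, followed at −2.11 ± 0.10 (−1.08 ± 0.14 on its other probe), then Mat2a, the other S-adenosylmethionine synthetase gene, at −1.76 ± 0.14, Slc44a3 at −1.75 ± 0.16 and the acyltransferase Lpcat2 (listed as Aytl1) at −1.38 ± 0.12. Slc44a3 was well above background on 2 of 12 livers, so that its difference rests on liver signals near background. Slc44a4 and Lpcat2 were well above background on 7 of 12 livers, so that their differences rest on such signals in part. The other Slc44a4 probe gave −3.76 ± 0.20 and was well above background on 3 of 12 livers. Some further genes of the list are given after their values were seen. The family member Slc44a1 was also higher in colon (−1.06 ± 0.10), whereas Slc44a2 did not pass (−0.15 ± 0.15). Slc5a7, the transporter of cholinergic neurons, was also called higher in colon but was not well above background on any of the 24 arrays. The phosphotransferases that complete the Kennedy pathway differed less. Chpt1 passed at 0.94 ± 0.12, and Cept1 (0.42 ± 0.08) stayed below 1.5-fold. The probes of Ept1 (listed as D5Wsu178e) disagreed. The brightest gave 0.57 ± 0.21 and did not pass, and a probe that was well above background on all 24 arrays gave 1.07 ± 0.10 and passed as higher in liver.

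**Figure D4:**
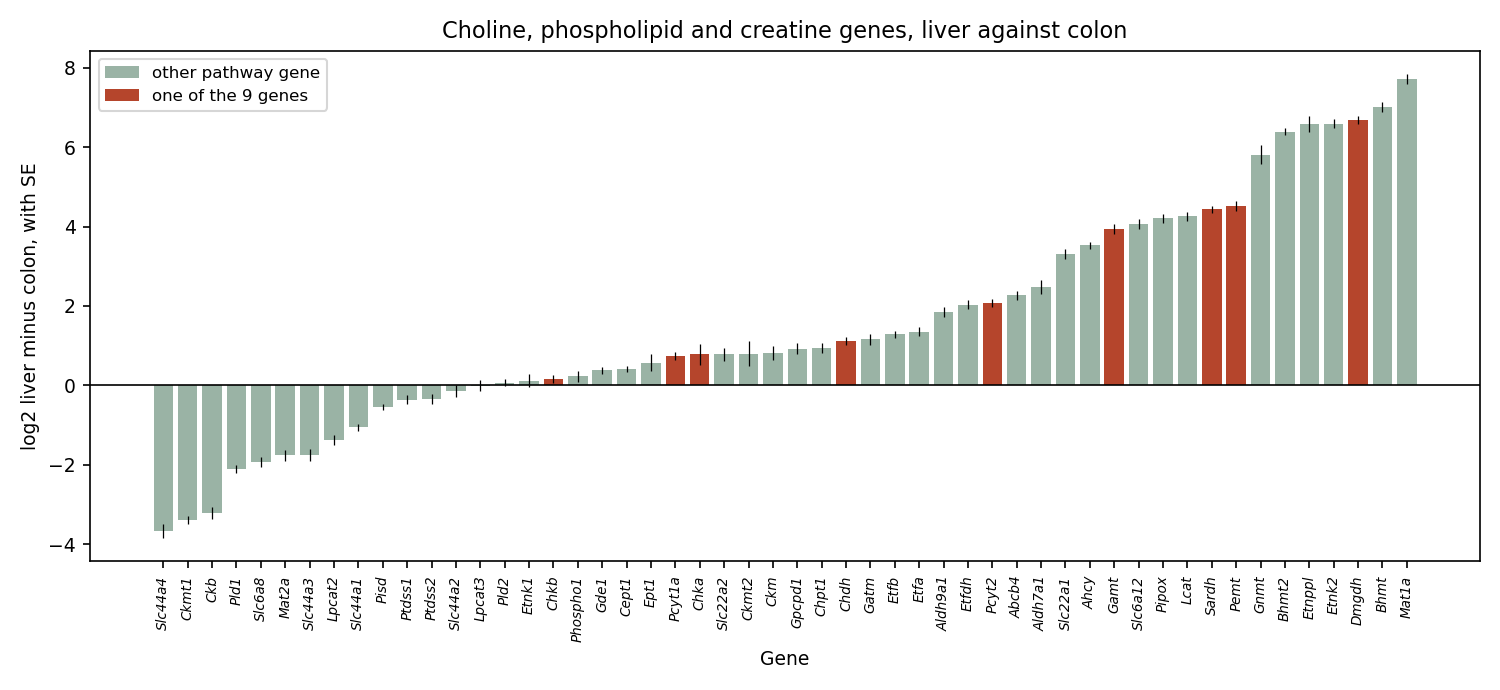
The bars give the log2 liver minus colon difference with its SE for 52 genes in order of size, red for the 9 genes and grey-green for the 43 other genes of choline, ethanolamine, methyl transfer and creatine that were well above background on at least 1 array of each tissue. Dmgdh stands among the largest differences with Bhmt and Mat1a, and Chkb stands near 0.

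Of 6 genes around creatine, all passed, 3 in each direction, where 11.3% of all probes passed as higher in liver and 12.1% as higher in colon. Gatm, which makes guanidinoacetate, the substrate of Gamt, was higher in liver by 1.16 ± 0.15 (SE) only, against 3.94 for Gamt. The creatine kinases Ckmt1 (−3.39 ± 0.09) and Ckb (−3.22 ± 0.14, and −2.44 ± 0.17 on its other probe) and the creatine transporter Slc6a8 (−1.92 ± 0.13) were higher in colon. The muscle kinases Ckm (0.82 ± 0.19) and Ckmt2 (0.80 ± 0.31) passed as higher in liver, and Ckm is itself among the skeletal muscle markers, whose mean was highest in liver HF-low-suf replicate 2. Without the mice of liver HF-low-suf replicates 1 and 2, 1 of the 6 genes passed as higher in liver in place of 3, while 7 of the 9 main genes passed in place of 8.

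The diets were compared within each tissue to ask whether selenium and folate after weaning changed these transcripts. No diet effect was detected on any of the 9 genes in either tissue. The labels and the methods put the mouse RNA in Cy3 and the pool in Cy5, and differences are given as HF-low-suf minus HF-low-low on that basis. The sign obtained in this way was opposite to the listed one for 36 of 36 probes listed as changed in liver and for 22 of 23 listed in colon. The exception, 2010016B13Rik, is listed with a negative log fold change beside a positive fold change. Its listed direction thus depends on the column read, and the fold change was used here. With the same dyes all hepatocyte markers were higher in liver. Turning the sign of the diet differences would leave the counts of genes that passed and the tests below as they are. Counts of arrays against the median of HF-low-low could change. At the threshold of the study, 1.5-fold with an unadjusted limma P below 0.01, 0 of 9 genes passed in colon, where 0.148% of all probes did, and 0 of 9 in liver, where 0.107% did. At an unadjusted P below 0.05 the count was likewise 0 in both tissues, against 1220 probes of the array in colon and 873 in liver, and 0 of the 17 probes passed either threshold. After adjustment over the array, 0 probes of 41174 were below 0.05 in either tissue. The 2 diet groups overlapped for all 9 genes in both tissues, while groups without overlap were seen for 0.0947% of all probes in colon and 0.0219% in liver.

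**Figure D5:**
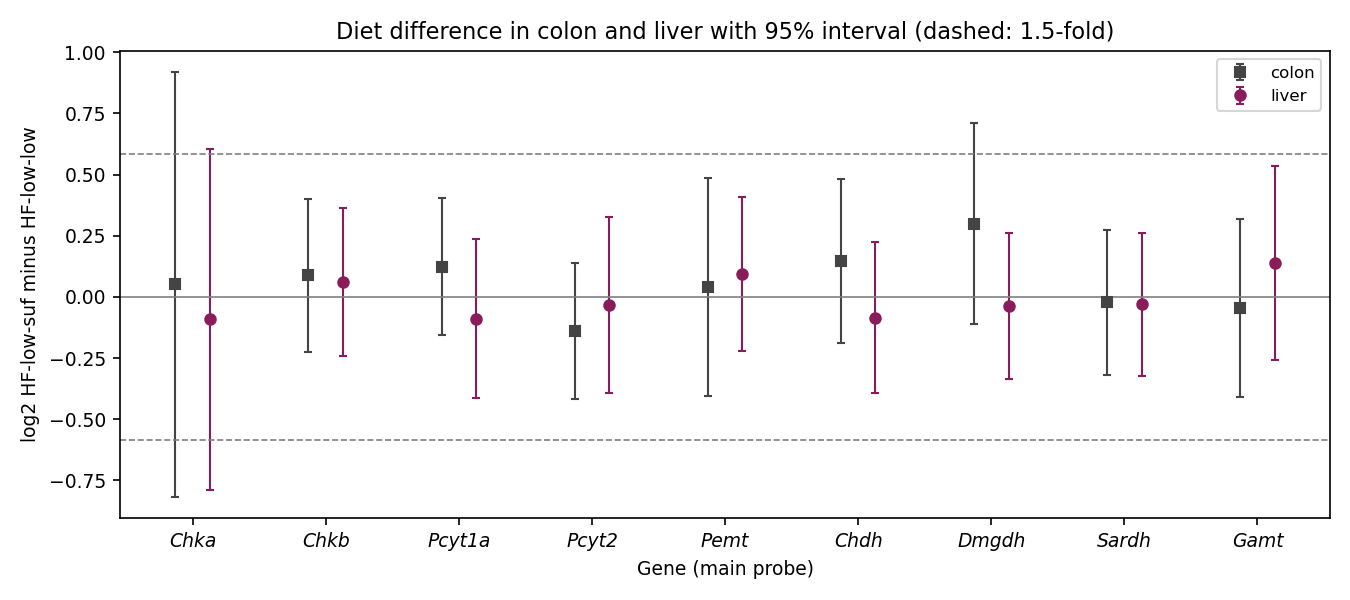
Points show the log2 difference HF-low-suf minus HF-low-low for the main probe of each gene, squares for colon and circles for liver, with the 95% interval of limma and dashed lines at 1.5-fold. Every interval crosses 0, and the intervals of Chka in both tissues and of Dmgdh in colon reach beyond the dashed lines.

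How large a diet effect could have been missed is given by the intervals. In colon the 95% interval lay within 1.5-fold in both directions for 7 of 9 genes, and in liver for 8 of 9. The differences themselves were 1.02-fold to 1.23-fold in colon, with unadjusted P between 0.14 and 0.901, and 1.02-fold to 1.10-fold in liver, with P between 0.467 and 0.845. Permuting the diets of the 12 mice in every possible way gave an exact P between 0.167 and 0.913 in colon and between 0.472 and 0.827 in liver.

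Among the kinases, Chka had a mean log2 ratio of −1.08 ± 0.97 (SD, n = 6) in colon HF-low-low and −1.03 ± 0.75 in colon HF-low-suf, and of −0.23 ± 0.85 and −0.32 ± 0.32 in the liver groups in the same order. Its interval, −0.82 to 0.92 in colon and −0.79 to 0.61 in liver, was the widest of the 9. The slides had been scanned on 2 days, 3 slides with 1 array of each group on each day. On the Chka probe the livers of the second day were higher by 0.80 on average (exact permutation P = 0.0152, adjusted P = 0.273 over 18 such comparisons), and the diet difference in liver was 0.51 on the first day and −0.70 on the second, in colon −0.67 and 0.78. For the other 8 genes the diet difference within a day lay between −0.17 and 0.47. Chkb stood at 0.04 ± 0.29 and 0.13 ± 0.13 in colon and at 0.21 ± 0.22 and 0.27 ± 0.21 in liver.

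Of the enzymes that make CDP-choline and CDP-ethanolamine, Pcyt1a had a mean of −0.67 ± 0.16 (SD, n = 6) in colon HF-low-low and −0.55 ± 0.19 in colon HF-low-suf, and of 0.17 ± 0.22 and 0.08 ± 0.26 in liver. Pcyt2 had −1.11 ± 0.18 and −1.25 ± 0.16 in colon. In 5 of 6 colons on HF-low-suf Pcyt2 lay below the median of HF-low-low (difference −0.14, interval −0.42 to 0.14, exact permutation P = 0.197), but the other Pcyt2 probe gave 0.037 and median centring put the main probe at 0.012. In liver Pcyt2 stood at 0.91 ± 0.21 and 0.88 ± 0.34.

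For the methyltransferase Pemt the mean was 2.68 ± 0.28 (SD, n = 6) in liver HF-low-low and 2.78 ± 0.18 in liver HF-low-suf. The difference was 0.09, with an interval of −0.22 to 0.41. In colon the means were −1.81 ± 0.29 and −1.77 ± 0.48. The other Pemt probe gave 0.15 in liver and −0.11 in colon, both with intervals that crossed 0.

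Dmgdh in colon showed the largest diet difference of the set, with means of −4.34 ± 0.44 (SD, n = 6) in HF-low-low and −4.04 ± 0.24 in HF-low-suf. The 6 HF-low-low colons ran from −4.90 to −3.60 (median −4.40) and the 6 HF-low-suf colons from −4.33 to −3.66 (median −4.03), each of the latter above the HF-low-low median. The groups overlapped, and the difference of 0.30 ± 0.19 (SE) did not pass (limma P = 0.14, adjusted P = 0.99974, exact permutation P = 0.167). The probe was well above background on 2 HF-low-low and 3 HF-low-suf colons. Without colon HF-low-low replicate 6 the difference was 0.45, with an unadjusted limma P below 0.05 that still missed the threshold of 0.01, without colon HF-low-suf replicate 5 it was 0.22 and without colon HF-low-low replicate 1 it was 0.19. Over the ways of processing tried it ran from 0.15 with the Cy3 channel alone to 0.50 with the signals processed by Feature Extraction. In liver the means of Dmgdh were 2.51 ± 0.21 and 2.47 ± 0.20.

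None of the remaining 3 genes passed. Chdh had −0.94 ± 0.29 and −0.80 ± 0.23 (SD, n = 6) in colon and 0.28 ± 0.26 and 0.19 ± 0.18 in liver. Sardh had −2.36 ± 0.18 and −2.38 ± 0.22 in colon and 2.08 ± 0.24 and 2.05 ± 0.15 in liver, with intervals of −0.32 to 0.27 in colon and −0.32 to 0.26 in liver. Gamt had −1.86 ± 0.38 and −1.91 ± 0.18 in colon and 1.99 ± 0.30 and 2.13 ± 0.36 in liver, where the interval of the difference was −0.26 to 0.54.

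On 1 array the values moved together. In colon HF-low-suf replicate 5, the array with the brightest reference channel, all 9 main probes had the highest log2 ratio of their group of 6, whereas 19.1% of all probes did. The adipose markers had a mean log2 ratio of 0.26 on this array and 1.13 to 2.13 in the other 11 colons. The 9 pancreas markers had −2.38 and −3.15 to −2.62 in the others, and the means of the hepatocyte and colon epithelium markers were also the highest of the 12 colons. Only 2 of the 9 pancreas markers were well above background on all 12 colons, and the rest were on 1 to 11 of them. On this array 71.9% of spots were well above background, against 38.4% to 52.5% on the other colons. Whether the bright reference or the cells of these markers have a part in the high values of the 9 probes was not tested. Without this array the diet differences of the 9 genes in colon lay between −0.18 (Pcyt2) and 0.22 (Dmgdh), and none passed.

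Whether the diet effect differed between liver and colon was tested directly. The liver diet difference minus the colon diet difference lay between −0.34 (Dmgdh) and 0.19 (Gamt) on the log2 scale. None of the 9 passed an unadjusted P of 0.01 with 1.5-fold in limma, against 1.22% of all probes. None was below an unadjusted P of 0.05, against 2681 of the 41174 probes. Unadjusted P lay between 0.146 and 0.964, and exact permutation P between 0.201 and 0.955.

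The other pathway genes gave no diet calls either. On the brightest probe of each of the 42 choline genes and the 6 creatine genes, 0 passed in colon and 0 in liver, and 0 were below an unadjusted P of 0.05 in limma. Over all 66 choline and 7 creatine probes with these names, 0 passed in either tissue, and 1 in colon and 2 in liver were below an unadjusted P of 0.05. The probe in colon was 1 of the 3 of Ahcy, which clears S-adenosylhomocysteine (0.32 ± 0.15 SE). The 2 in liver were the other probes of Etnk2, with a difference of −0.60 ± 0.24 (SE), and of Etnppl, with a difference of −0.92 ± 0.41 (SE, limma adjusted P = 0.999979), against −0.12 ± 0.31 on the brightest, and the latter was well above background on 9 of 12 livers. The study lists this Etnppl probe for liver, with the opposite sign. The choline genes had median diet differences of 0.03 in colon and −0.01 in liver, against −0.01 and 0.01 over all probes. Gnmt, also named after its values were seen, which uses S-adenosylmethionine to methylate glycine and makes the sarcosine that Sardh consumes, had the largest diet difference in liver on the brightest probes of the choline genes, 0.62 ± 0.47 (SE), which is smaller than that of the other Etnppl probe. Ept1, whose product is a selenoprotein of the phosphatidylethanolamine branch, differed by 0.08 in colon and −0.08 in liver on its brightest probe.

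Within the livers, small differences between mice were compared as deviations from the diet means, among 9663 probes well above background on all 12 livers. For Dmgdh the most similar probe was the main one of another of the 9, Pcyt1a, with Pearson's r of 0.94 over 12 livers. The likeness is that of this probe, whose liver values correlated at 0.24 with those of the other Pcyt1a probe. Both had their lowest value in liver HF-low-suf replicate 1, the liver with raised adipose markers, and without it r was 0.89. In the 12 colons r of this pair was −0.08. Gamt was most like Serpina6 (0.97) and Clcn2 (0.94), Pcyt2 like Igfbp3 (0.97) and Osbpl2 (0.96), and Sardh like Bckdha (0.96) and D11Ertd18e (0.95). Pemt was most like Xrcc4 (0.93) and 1110002E23Rik (0.92), and Chdh like Ssbp3 and A630054L15Rik (both 0.93). For the kinases the highest values were lower, 0.88 for Chka with Sf3b1 and Eif3s10 and 0.89 and 0.88 for Chkb with Tbrg4 and Fbxo7. The second gene for Dmgdh was Cyp2c54 (0.93), and Pcyt1a was most like a probe without a gene symbol and Timd2 (both 0.94). The points share arrays, slides and the pool, each value is the highest over all these probes, and it is given as a description.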

How the data were processed

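RNA of colon and liver from 12 mice was measured on 24 two-colour arrays of 45018 spots, scanned by the authors with Feature Extraction 9.5.3.1. The deposited intensity values (mean signal and median local background of each channel) were used as given, and the authors' processed signals, also deposited as intensity values, served as an alternative. No depth exists for arrays, and precision is limited by the 6 arrays of a group.

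Control spots (1639) were left out, which left 43379 spots for 41174 probes, and single outlier spots were dropped from the array that flagged them. Background was corrected by normexp with an offset of 50 and channels were normalised by loess in limma 3.58.1 (R 4.3.3, statmod 1.5.0), which gave log2 ratios of Cy3 to Cy5. These log2 values were computed from the deposited intensities. Groups came from the labels. Diets were compared within a tissue (12 arrays) at the study's threshold of P below 0.01 and 1.5-fold. Liver was compared with colon over 24 arrays, with the mouse, numbered in the labels, as a random block (correlation 0.158). Deviations of liver and colon of the same mouse correlated between −0.03 and 0.28, and fits that left out a mouse reused this correlation. Benjamini-Hochberg adjustment ran over all probes. Exact permutation tests used 924 assignments of mice to diets or 4096 sign flips, two-sided. With separate mice in each group, P-values measure the spread between mice, including array error. The procedure was tested on simulated data.

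The 9 genes and the lists were chosen with earlier results of these data known. Named were the 9 genes with every probe, the 5 genes of each pathway list with the largest called difference in each direction and the 2 genes most like each of the 9 over the 12 livers, and a few others were picked once their values were known. One gene that this rule names is not reported here. Of 23837 probes with a RefSeq accession, 22937 matched the gene table. Promoters came from RefSeq, build GRCm38.p6, in which 8 of the 9 genes had an entry.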

Additional observations from a re-analysis of the deposited data

Results flagged for a closer look

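Among 36 groups of 6 arrays (9 genes in 4 groups), 2 held a value far from the rest of its group, where chance alone gives about 1.8. Pcyt2 had a log2 ratio of 0.51 in liver HF-low-low replicate 3, the lowest of its group. Sardh had −1.97 in colon HF-low-suf replicate 5, the highest of its group and the array on which all 9 genes were the highest of their group.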

How the results depend on the processing

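The number of the 9 genes higher in liver was 8 and stayed between 6 and 8 over all alternatives (7 to 8 when each mouse was left out), with 6 under median centring. Pcyt2, Pemt, Chdh, Dmgdh, Sardh and Gamt passed under every alternative tried. Chka and Pcyt1a did not, and the cause was not tested. With the mouse as a fixed block or left out of the model the count was 8. By diet, 0 of the genes tested passed in colon and in liver under the alternatives run, and 0 for the difference between tissues. With dim probes left out, Dmgdh had no value in colon. Of the 36 differences of the 9 genes, 17 changed sign under at least 1 alternative (6 by diet in colon, 7 by diet in liver, 3 for the difference of the diet effect and 1 between tissues), and none of these had passed. Those that moved by more than their SE were the following. Under median centring Chkb between tissues was −0.23, Pcyt2 by diet in colon 0.012 and Sardh by diet in colon 0.14, and on the other probe the diet difference in colon was −0.035 for Chdh and 0.037 for Pcyt2. The replicate number of the diet groups marks a slide. Deviations of arrays with the same number correlated between −0.09 and 0.24 in colon and between −0.51 and 0.54 in liver, so the numbers do not pair the mice, and with the replicate block the probes of the array called by diet in colon were 74 and the probes of the array called by diet in liver were 131, in place of 61 and 44, with 0 of the 9 genes in either. These counts over the array varied widely, from 3 to 110 in colon and from 1 to 145 in liver, and from 22 to 237 and from 11 to 309 when 1 array was left out. For the difference of the diet effect the count was 136 to 582 in place of 504. Of the creatine genes, 1 was higher in liver under median centring and without the mice of liver HF-low-suf replicates 1 and 2, in place of 3. Leaving out those mice was chosen after seeing the data for the tissue differences, the difference of the diet effect and the list counts, and so was leaving out both mice with a bright reference for the latter 2. Scaling by Aquantile leaves the ratio of a spot as it was. Signals near background limit the colon levels of Dmgdh and Pemt, and the dimmest Chka probes.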
